A study of Homo sapiens with 8 samples.

Results

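Collagen chains are the gene products whose symbols read COL, a type number, A and a chain number, and each of the 8 gene tables of this RNA sequencing study listed 44 such symbols among 23686 genes. Members were taken by that pattern, a rule that uses no measured value. A further 6 symbols began like a chain name without matching the pattern and were left out. The study sequenced total RNA from HS578T and MDA-MB-231, both established human cell lines from triple-negative breast cancer, a class that lacks the estrogen, progesterone and HER2 receptor features used to classify other breast tumours. In each line, 2 control libraries were set against 2 libraries whose titles name siGpx1, an siRNA against GPX1, a glutathione peroxidase that detoxifies hydrogen peroxide. The genotype field of the siGpx1 libraries calls GPX1 knocked out, whereas the titles name an siRNA, and the labels do not state the kind of control, the number of siRNAs or the time after treatment. They also do not say that replicates were separate cultures, so the p-values reflect library-to-library spread alone, and that spread may be technical.

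Collagens are extracellular proteins built from three-stranded helices in which each strand is a chain encoded by its own gene. Fibril-forming chains assemble into the cross-linked fibres of connective tissue, type IV chains into the sheet-like network of basement membranes, and type VI chains into beaded microfilaments around cells. Other chains decorate fibrils, span the plasma membrane or anchor epithelium to stroma. Because several types are heterotrimers, the ratio between partner chains bears on which helices can be made. In breast tumours most collagen is usually credited to stromal fibroblasts, and the matrix around the tumour is linked to invasion.

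The libraries held between 12905808 and 14216365 estimated counts and detected 15573 to 15805 genes, and 14249 genes entered the tests. GPX1 stood at 232.2 and 232 TPM (a level scaled by transcript length and library total) in the HS578T controls and at 9.52 and 9.02 TPM in its siGpx1 libraries, and at 594 and 634 TPM against 21.8 and 20.4 TPM in MDA-MB-231. GPX1 counts therefore lay on the side its label gives in each library. The labels call both lines epithelial. Of the 7 epithelial markers listed, HS578T had EPCAM at no more than 0.22 TPM, CDH1 at no more than 0.12 TPM, KRT19 at no more than 0.51 TPM and KRT5 at 0, while KRT18 was at 322 and 321 TPM, KRT14 at 36.7 and 37.7 TPM and KRT8 at 25.0 and 28.3 TPM in its controls. The adhesion markers EPCAM and CDH1 were thus near 0 there, and some keratins were not. In MDA-MB-231, EPCAM lay between 31.8 and 39.5 TPM and KRT19 between 440.2 and 668 TPM, with CDH1 at no more than 1.11 TPM. ESR1 was at most 0.09 TPM and PGR at most 1.02 TPM in all libraries, while ERBB2 transcripts lay between 30.9 and 45.0 TPM.

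The lines differed most in how much collagen RNA they held. The 44 chains summed to 12965 and 13036 TPM in the HS578T controls and to 733 and 724 TPM in the MDA-MB-231 controls. As a share of all counts, they took 3.36 and 3.40% in the former and 0.184 and 0.182% in the latter. Of 44 chains, 29 passed the filter on low counts. Of those, 28 (96.6%) differed between the control lines, 23 lower and 5 higher in MDA-MB-231. Among all tested genes 81.6% differed, 38.6% lower and 43.0% higher (adjusted p under 0.05, from the quasi-likelihood test of edgeR with p-values adjusted by Benjamini-Hochberg over all tested genes, the rule behind each call here). The median log2 difference of the 29 chains was -2.45, against 0.05 for all tested genes, and each chain at 0 counts in MDA-MB-231 has a bound below that median. The filter keeps a gene that is high enough in a single line. COL3A1, COL5A3, COL11A2, COL6A6, COL14A1, COL19A1 and COL22A1 passed it through HS578T alone, and COL15A1 and COL4A4 through MDA-MB-231 alone. The direction of their differences was thus fixed by the filter, and they are part of these counts and this median. In bulk RNA, fewer cells of a type and less RNA per cell cannot be told apart. Fibroblast markers moved with this difference: all 6 listed (PDGFRA, PDGFRB, THY1, DCN, LUM and FAP) were above 1 TPM in HS578T, where they summed to 1188 to 1454 TPM, against 6.16 to 7.68 TPM in MDA-MB-231, where THY1 and DCN were at 0. Endothelial markers summed to 3.06 to 5.87 TPM and leukocyte markers to 6.91 to 14.6 TPM across the libraries, with PTPRC, the pan-leukocyte marker, at no more than 0.19 TPM. Whether a marker-bearing subset of cells plays a part in the collagen difference was not tested.

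**Figure D1:**
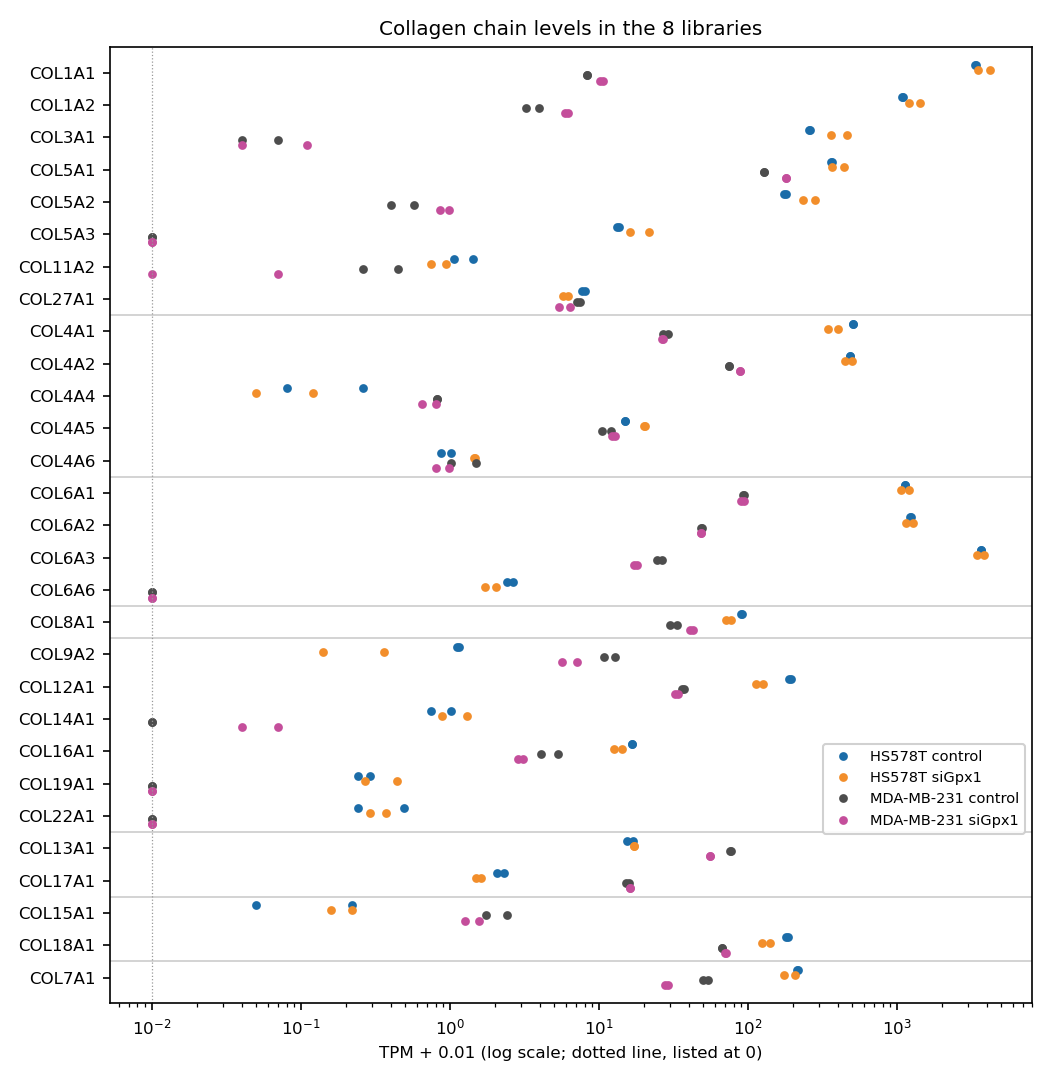
Level of each of the 29 tested collagen chains in the 8 libraries, on a log axis of TPM + 0.01, with a dotted line at chains listed at 0. Grey lines part the structural classes in the order fibril-forming, type IV, type VI, type VIII, fibril-associated, transmembrane, multiplexin and type VII, and each point is 1 library. For COL1A1 the HS578T points lie at or above 3330.2 TPM and the MDA-MB-231 points near 10 TPM, whereas the points of COL27A1 lie together.

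Fibril-forming chains of types I, III and V had large differences between the lines. COL1A1, the major type I chain, stood at 3330.2 and 3361 TPM in the HS578T controls and at 8.34 and 8.24 TPM in the MDA-MB-231 controls, a log2 difference of -8.79 ± 0.09 (SE; edgeR adjusted p = 1.94e-19). Its partner COL1A2 was at 1085 and 1089 TPM against 3.92 and 3.22 TPM (-8.38 ± 0.09, edgeR adjusted p = 5.05e-19). COL5A2, a chain of the type V collagen that starts and limits type I fibrils, was at 181 and 175 TPM against 0.56 and 0.39 TPM (-8.67 ± 0.12). These chains were abundant in HS578T and close to the detection limit or low in MDA-MB-231. COL3A1, which forms type III fibrils alongside type I, held 7808 and 7414 counts in the HS578T controls and 2 and 1 counts in the MDA-MB-231 controls, a ratio of 5960 with a 95% exact counting interval of 2040 to 28900. COL5A3 held 459 and 432 counts against 0 and 0, at least 349-fold higher in HS578T with the floor set at 3 counts over the group. Such intervals and floors cover counting error only.

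COL5A1 and COL27A1 were the tested fibril-forming chains that differed least between the lines, though COL1A1, at 8.34 and 8.24 TPM, was still above COL27A1 in MDA-MB-231. COL5A1 stood at 365 and 362 TPM in the HS578T controls and at 128 and 128 TPM in the MDA-MB-231 controls (-1.64 ± 0.06, edgeR adjusted p = 3.39e-13), where it was the most abundant chain. COL5A1 therefore outnumbered COL5A2 by 2.02 and 2.07 to 1 in HS578T and by 228 and 329 to 1 in MDA-MB-231. COL27A1, a short fibril-forming chain known from cartilage, was at 7.67 and 7.98 TPM against 7.45 and 7.07 TPM. That difference of -0.24 ± 0.10 passed narrowly (edgeR adjusted p = 0.0307) and was not called without control replicate 2 of either line, with DESeq2 or with limma on TPM. COL11A2, another cartilage chain, had 30 and 27 counts against 9 and 9.

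Type VI chains were the other large block in HS578T. COL6A3 was at 3657 and 3666 TPM in its controls and COL6A2 and COL6A1 at 1219.7 and 1248 TPM and at 1124 and 1137 TPM. In the MDA-MB-231 controls the same chains were at 26.6 and 24.3 TPM, 48.4 and 48.9 TPM, and 93.5 and 92.9 TPM. The order of the 3 chains was thus turned around: COL6A3 was the highest in HS578T and the lowest in MDA-MB-231, with 3.25 and 3.22 COL6A3 transcripts per COL6A1 transcript in the former and 0.284 and 0.262 in the latter. Their log2 differences were -7.28 ± 0.06 for COL6A3, -4.81 ± 0.05 for COL6A2 and -3.73 ± 0.05 for COL6A1. COL6A6, which can take the place of the COL6A3 chain, had 122 and 109 counts in the HS578T controls and 0 in all 4 MDA-MB-231 libraries (at least 90.5-fold higher in HS578T).

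In type IV collagen the partners COL4A1 and COL4A2 were nearly level in HS578T, at 505 and 507 TPM and at 481 and 480.4 TPM. In MDA-MB-231 COL4A1 was at 29.2 and 26.8 TPM and COL4A2 at 74.3 and 74.0 TPM, differences of -4.31 ± 0.06 and -2.83 ± 0.04. COL4A5 was close to level in the lines, at 14.9 and 14.9 TPM against 11.9 and 10.5 TPM (-0.55 ± 0.07, edgeR adjusted p = 3.19e-06). COL4A6 had 37 and 30 counts against 56 and 39 and was the tested chain whose difference did not pass (0.27 ± 0.25, edgeR adjusted p = 0.321). COL4A4, a chain of the kidney glomerular network, was low in both lines, with 14 and 4 counts against 48 and 49 (2.18 ± 0.39).

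The 5 chains that were higher in MDA-MB-231 came from 4 classes: the transmembrane chains COL13A1 and COL17A1, the fibril-associated COL9A2, the multiplexin COL15A1 and the type IV chain COL4A4. COL13A1, a transmembrane collagen of adhesion sites, was at 17.0 and 15.5 TPM in the HS578T controls and at 76.4 and 75.1 TPM in the MDA-MB-231 controls (2.07 ± 0.07, edgeR adjusted p = 8.39e-14). COL17A1, the transmembrane collagen of hemidesmosomes, was at 2.05 and 2.29 TPM against 15.1 and 15.9 TPM (2.70 ± 0.10), and COL9A2, a chain of the cartilage collagen type IX, at 1.1 and 1.14 TPM against 12.7 and 10.8 TPM (3.24 ± 0.22). COL15A1, found in basement membrane zones, had 6 and 1 counts against 52 and 74 (3.89 ± 0.44). At so few counts 1 library decides the size: without HS578T control replicate 1 or 2 the difference was 5.55 or 3.15 for COL15A1 and 3.29 or 1.57 for COL4A4, each still called.

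The remaining abundant chains were lower in MDA-MB-231 by a smaller factor than the type I and type VI chains. COL7A1, the chain of the anchoring fibrils that fasten epithelium to dermis, was at 212 and 216 TPM in HS578T and 53.8 and 50.1 TPM in MDA-MB-231 (-2.18 ± 0.06). COL12A1, which coats type I fibrils, was at 195 and 187 TPM against 37.3 and 36.0 TPM (-2.45 ± 0.05), and COL18A1, the basement membrane multiplexin from which endostatin is cut, at 180.5 and 185 TPM against 66.9 and 67.1 TPM (-1.58 ± 0.05). COL8A1, a short-chain network collagen, was at 90.8 and 89.7 TPM against 30.02 and 33.3 TPM (-1.64 ± 0.06), and COL16A1, a fibril-associated chain, at 16.6 and 16.7 TPM against 4.05 and 5.26 TPM (-1.97 ± 0.10). These chains stayed expressed in both lines. COL14A1, COL19A1 and COL22A1, all fibril-associated chains, had 36 and 25, 11 and 13, and 8 and 16 counts in the HS578T controls and 0 in the MDA-MB-231 controls. They were at least 23.9-fold higher for COL14A1 and at least 9.4-fold higher for each of the other two in HS578T.

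After GPX1 depletion in HS578T, 17 of the 29 tested chains changed, 8 higher and 9 lower, which is 58.6% against 50.7% of all tested genes (28.6% higher, 22.1% lower). The share is near the background, and the median log2 change of the chains, 0.03, was close to the 0.04 of all genes. Of the 8 tested fibril-forming chains 6 rose and 2 fell, and of the 6 rises those of COL1A1 and COL5A1 were lost with DESeq2 and with limma on TPM. Of the 6 tested fibril-associated chains 0 rose and 3 fell, of the 5 tested type IV chains 2 rose and 1 fell, and 0 of the 4 tested type VI chains passed by edgeR in the fit of all 8 libraries. At an unadjusted p under 0.05, 1 of the 4 type VI chains (COL6A6) passed, and DESeq2 called 0. DESeq2 called fewer chains in all, 5 higher and 5 lower.

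The siGpx1 replicates of HS578T were not alike in collagen, and this touches each HS578T change. Replicate 1 was above replicate 2 in 17 of 19 chains with at least 10 CPM (TMM-scaled counts by library size) in that group, by a median of 0.16 on the log2 scale (range -0.04 to 0.41), against 0.01 over 9603 genes at that level. In the other groups the median gap of the chains was between -0.01 and 0.01. Without replicate 1, 6 chains were called higher and 9 lower, and without replicate 2, 12 were called higher and 5 lower, so ranges without single libraries are given beside the HS578T values.

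COL3A1 showed the largest rise among the fibril-forming chains of HS578T. It went from 259 and 255 TPM to 463 and 359 TPM, a log2 change of 0.73 ± 0.07 (edgeR adjusted p = 5.5e-07, range 0.54 to 0.88 without single libraries). COL5A2 rose from 181 and 175 TPM to 280 and 235 TPM (0.59 ± 0.06, edgeR adjusted p = 3e-07, range 0.46 to 0.69). COL5A3 rose from 13.5 and 13.2 TPM to 21.5 and 16.0 TPM (0.54 ± 0.11, edgeR adjusted p = 0.000909, range 0.31 to 0.72). In each of these chains both siGpx1 libraries lay above both controls, and each kept its call without any single library of the line.

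The type I chains and COL5A1 rose less. COL1A1 went from 3330.2 and 3361 TPM to 4203 and 3470.5 TPM (0.25 ± 0.06, edgeR adjusted p = 0.00156) and COL1A2 from 1085 and 1089 TPM to 1428 and 1198 TPM (0.32 ± 0.05, edgeR adjusted p = 0.000127). Without siGpx1 replicate 1 the changes were 0.11 and 0.19, and without replicate 2 they were 0.37 and 0.43. The COL1A1 call was also lost with DESeq2 and with limma on TPM. For COL5A1 the siGpx1 values of 440 and 365 TPM overlapped the controls at 365 and 362 TPM. Its change of 0.20 ± 0.06 (edgeR adjusted p = 0.00696) became 0.06 without siGpx1 replicate 1, where it was not called (edgeR adjusted p = 0.0875), and 0.31 without replicate 2. The COL5A1 call was also lost without control replicate 2, with DESeq2, with limma on TPM and with HS578T fitted alone. COL27A1 and COL11A2 were the fibril-forming chains that fell, from 7.67 and 7.98 TPM to 6.21 and 5.73 TPM (-0.34 ± 0.10, edgeR adjusted p = 0.0117) and from 30 and 27 counts to 15 and 12 counts (-0.96 ± 0.35, edgeR adjusted p = 0.0316). The COL11A2 call was lost without any single library of the line, and that of COL27A1 without control replicate 2 or siGpx1 replicate 2 (highest edgeR adjusted p = 0.064).

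Among the fibril-associated chains of HS578T, COL12A1 had the smallest p of any chain. It fell from 195 and 187 TPM to 126 and 114 TPM (-0.65 ± 0.04, edgeR adjusted p = 3.61e-09, range -0.74 to -0.59). COL9A2 fell from 17 and 17 counts to 5 and 2 counts, a log2 change of -2.13 ± 0.48 (edgeR adjusted p = 0.00161) that was -2.95 without siGpx1 replicate 1 and -1.61 without replicate 2. COL16A1 went from 16.6 and 16.7 TPM to 14.3 and 12.6 TPM (-0.26 ± 0.09, edgeR adjusted p = 0.0226), a call lost without either control or siGpx1 replicate 2. The siGpx1 libraries lay below both controls in each of these chains. COL14A1, COL19A1 and COL22A1 had 42 and 30, 19 and 12, and 9 and 12 counts after depletion, and their changes did not pass.

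The network chains of HS578T moved apart. COL4A1 fell from 505 and 507 TPM to 402 and 344 TPM (-0.39 ± 0.05, edgeR adjusted p = 1.05e-05, range -0.50 to -0.29). Its partner COL4A2 stood at 481 and 480.4 TPM before and 496 and 448 TPM after (0.03 ± 0.04, edgeR adjusted p = 0.625). COL4A5 rose from 14.9 and 14.9 TPM to 19.9 and 20.2 TPM (0.49 ± 0.07, edgeR adjusted p = 1.66e-05), and its siGpx1 libraries lay close together. COL4A6, the partner of COL4A5, rose from 37 and 30 counts to 48 and 51 counts (0.68 ± 0.25, edgeR adjusted p = 0.0315), a call lost without any single library of the line. COL4A4 had 2 and 6 counts after depletion against 14 and 4 before. COL8A1 fell from 90.8 and 89.7 TPM to 76.5 and 71.5 TPM (-0.24 ± 0.06, edgeR adjusted p = 0.00232, range -0.29 to -0.20).

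The abundant type VI chains of HS578T stayed within the spread of the siGpx1 replicates. COL6A1 was at 1192 and 1056 TPM after depletion, COL6A2 at 1284 and 1139 TPM and COL6A3 at 3802 and 3418 TPM, so that in each chain the siGpx1 values lay on either side of both controls. Their changes were 0.04 ± 0.04, 0.03 ± 0.04 and 0.02 ± 0.04, and each took the other sign, without a call, with HS578T fitted alone (-0.01, -0.03 and -0.04). Without siGpx1 replicate 2 all 3 were called higher (0.11, 0.09 and 0.07), and without replicate 1 COL6A3 was called lower (-0.06, edgeR adjusted p = 0.0486). COL6A6 had 86 and 77 counts after depletion against 122 and 109 before (-0.39 ± 0.18, edgeR adjusted p = 0.0844), and was called with HS578T fitted alone (-0.44, edgeR adjusted p = 0.0391).

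Of the other HS578T chains, COL18A1 fell from 180.5 and 185 TPM to 141 and 123 TPM (-0.42 ± 0.05, edgeR adjusted p = 1.84e-06, range -0.51 to -0.34). COL17A1 fell from 2.05 and 2.29 TPM to 1.60 and 1.48 TPM (-0.44 ± 0.16, edgeR adjusted p = 0.0483), a call lost without any single library of the line. COL13A1 was at 17.1 and 17.2 TPM after depletion, close to its controls (0.16 ± 0.08, edgeR adjusted p = 0.133). COL7A1 was at 207 and 174 TPM, below both controls (-0.12 ± 0.06, edgeR adjusted p = 0.0949). Without siGpx1 replicate 1 its change of -0.25 was called (edgeR adjusted p = 6.85e-06), as it was with HS578T fitted alone and with a stricter filter. COL15A1 had 4 and 6 counts against 6 and 1.

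Epithelial and fibroblast markers moved in the same HS578T libraries. The 7 epithelial markers summed to 384 and 388 TPM in the controls and to 982 and 1079 TPM after depletion, most of it KRT18, while EPCAM and CDH1 stayed at or near 0. The 6 fibroblast markers summed to 1454 and 1437 TPM before and 1248 and 1188 TPM after, with THY1 going from 937 and 954 TPM to 394 and 368 TPM. Other fibroblast markers went the other way, DCN from 107 and 102 TPM to 332 and 307 TPM, PDGFRA from 90.1 and 82.4 TPM to 170.4 and 190.5 TPM, LUM from 246 and 226 TPM to 274 and 255 TPM and FAP from 5.09 and 3.91 TPM to 5.64 and 6.49 TPM, and PDGFRB overlapped. The 6 mesenchymal markers summed to 17310 and 17052 TPM before and 22482 and 20395 TPM after, most of it FN1. They did not move as a set. VIM, CDH2, FN1 and SNAI2 were higher in the siGpx1 libraries than in the controls. ZEB1 went down from 47.4 and 48.1 TPM to 41.0 and 36.4 TPM and TWIST1 from 12.6 and 13.9 TPM to 10.4 and 9.58 TPM. The fibronectin gene FN1, a matrix partner of collagens, took 3.62 and 3.54% of all counts before and 4.87 and 4.39% after. The part of these shifts in the collagen changes was not tested.

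In MDA-MB-231, 14 of the 29 tested chains changed after GPX1 depletion, 6 higher and 8 lower. That is 48.3%, against 42.6% of all tested genes (20.7% higher, 21.9% lower), again near the background. The median log2 change was 0.00 for the chains and 0.00 for all genes, where the chains' median includes 4 listed at 0 in all libraries of the line. Of the 8 tested fibril-forming chains 4 rose, 2 fell and 2 were at no more than 3 counts per library. Of the 6 tested fibril-associated chains 0 rose and 3 fell.

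COL5A1, the most abundant chain of MDA-MB-231, rose from 128 and 128 TPM to 181 and 180.4 TPM (0.49 ± 0.06, edgeR adjusted p = 5.58e-06, 0.52 to 0.55 without single libraries, where the scaling of the others also shifts). COL1A2 rose from 3.92 and 3.22 TPM to 5.88 and 6.18 TPM (0.75 ± 0.17, edgeR adjusted p = 0.00178), and COL1A1 from 8.34 and 8.24 TPM to 10.7 and 10.1 TPM (0.32 ± 0.12, edgeR adjusted p = 0.0485). COL5A2 rose from 22 and 16 counts to 33 and 36 counts (0.94 ± 0.36, edgeR adjusted p = 0.0461). Both siGpx1 libraries were above both controls in these 4 chains. The COL1A1 call was lost without either control or siGpx1 replicate 1 (highest edgeR adjusted p = 0.1) and the COL5A2 call without control replicate 2 or either siGpx1 replicate (highest edgeR adjusted p = 0.178). COL3A1 had 2 and 1 counts before and 1 and 3 counts after, too few to show a change, and COL5A3 had 0 counts in all 4 libraries.

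The fibril-forming chains that fell in MDA-MB-231 were the ones that fell in HS578T, COL27A1 and COL11A2. COL27A1 went from 7.45 and 7.07 TPM to 6.35 and 5.34 TPM (-0.32 ± 0.10, edgeR adjusted p = 0.0196). The COL27A1 call was lost without either control or siGpx1 replicate 2 (-0.15 and the highest edgeR adjusted p, 0.358, in the last case), with DESeq2 and with limma on TPM. COL11A2 had 9 and 9 counts before and 2 and 0 after, a ratio of 8.48 with a 95% exact counting interval of 2.03 to 75.3 (edgeR adjusted p = 0.00531). Its call was lost without siGpx1 replicate 2. It was also not among the calls with DESeq2, with limma on TPM, with MDA-MB-231 fitted alone or with a stricter filter.

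The clearest falls in MDA-MB-231 were in other classes. COL7A1 fell from 53.8 and 50.1 TPM to 28.8 and 27.7 TPM (-0.89 ± 0.07, edgeR adjusted p = 4.21e-08), COL6A3 from 26.6 and 24.3 TPM to 17.2 and 17.9 TPM (-0.54 ± 0.06, edgeR adjusted p = 2.32e-06) and COL13A1 from 76.4 and 75.1 TPM to 55.4 and 55.4 TPM (-0.46 ± 0.06, edgeR adjusted p = 5.58e-06). These calls held without any single library of the line, with ranges of -0.88 to -0.79, -0.55 to -0.44 and -0.42 to -0.41. COL9A2 fell from 12.7 and 10.8 TPM to 5.65 and 7.05 TPM (-0.90 ± 0.16, edgeR adjusted p = 0.000243). COL16A1 fell from 4.05 and 5.26 TPM to 2.87 and 3.10 TPM (-0.65 ± 0.14, edgeR adjusted p = 0.00154), a call lost without control replicate 2. In COL12A1 the fall was small, from 37.3 and 36.0 TPM to 33.8 and 32.5 TPM (-0.16 ± 0.05, edgeR adjusted p = 0.0157), and its call was lost without any single library of the line and with DESeq2 size factors in place of TMM.

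COL8A1 and COL4A2 rose in MDA-MB-231. COL8A1 went from 30.02 and 33.3 TPM to 42.7 and 40.8 TPM (0.39 ± 0.07, edgeR adjusted p = 0.000192), and COL4A2 from 74.3 and 74.0 TPM to 88.0 and 88.3 TPM (0.24 ± 0.04, edgeR adjusted p = 0.000362). COL4A1 stood at 26.7 and 26.3 TPM after depletion (-0.09 ± 0.07, edgeR adjusted p = 0.379) and COL4A5 at 12.8 and 12.3 TPM (0.16 ± 0.07, edgeR adjusted p = 0.101). COL4A6 had 29 and 34 counts and COL4A4 37 and 44, neither called. COL6A1 at 90.2 and 93.5 TPM, COL6A2 at 47.9 and 48.2 TPM, COL17A1 at 16.1 and 16.1 TPM and COL18A1 at 70.8 and 69.8 TPM were all within 0.06 of their controls on the log2 scale and did not pass. COL15A1 had 37 and 43 counts against 52 and 74 (-0.57 ± 0.27, edgeR adjusted p = 0.113), and COL14A1 had 1 and 2 counts against 0 and 0.

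Epithelial markers were higher in the siGpx1 libraries of MDA-MB-231 too, at 1761 and 1741 TPM before and 2747 and 2817 TPM after, with KRT8, KRT18 and KRT19 making up most of the sum. The fibroblast markers summed to 6.69 and 6.16 TPM before and 7.68 and 7.25 TPM after. The mesenchymal markers summed to 2441 and 2496 TPM before and 3161 and 3124 TPM after, most of it VIM. VIM, CDH2, FN1 and SNAI2 were higher in the siGpx1 libraries than in the controls. ZEB1 went down from 41.3 and 40.0 TPM to 36.9 and 35.0 TPM, and TWIST1 was at 0 throughout. FN1 took 0.0764 and 0.0710% of counts before and 0.0941 and 0.0929% after. The part of these in the collagen changes was not tested.

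**Figure D2:**
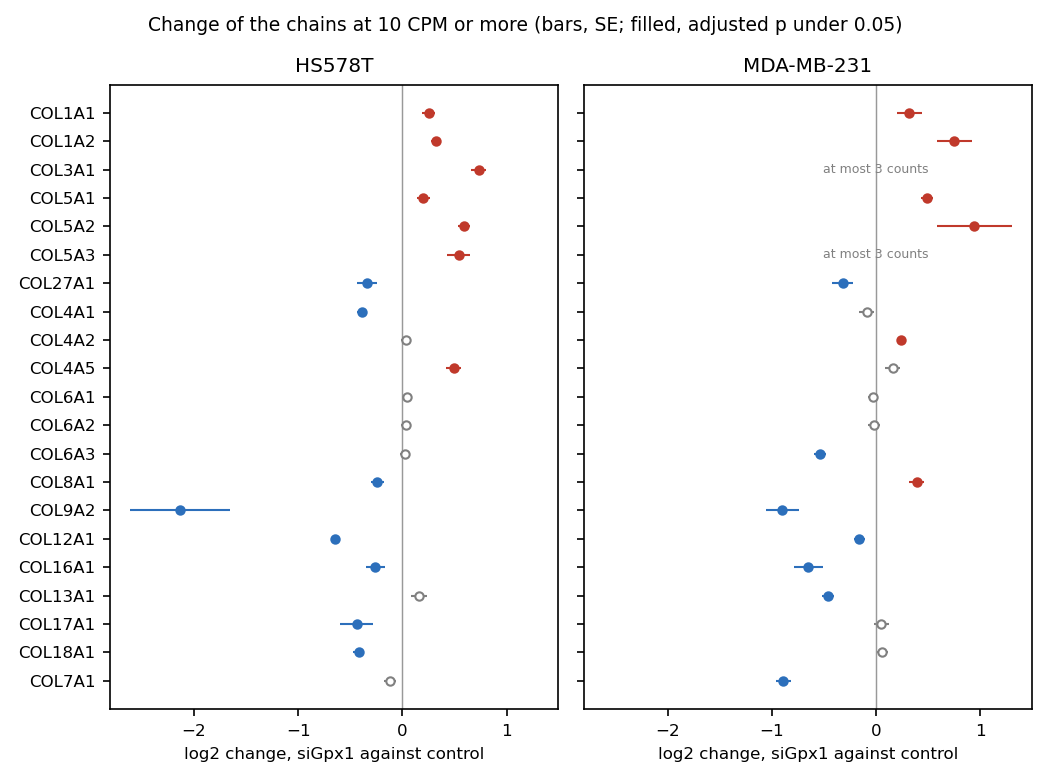
Log2 change (siGpx1 against control) of the 21 chains with at least 10 CPM in a group, HS578T on the left and MDA-MB-231 on the right, from the edgeR fit. Filled red points were called higher, filled blue points lower and open grey points were not called, and bars are SE. COL1A1, COL1A2, COL5A1 and COL5A2 are red in both panels, and COL8A1 is blue on the left and red on the right.

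Setting the lines side by side, which share no samples, 4 chains rose in both (COL1A1, COL1A2, COL5A1 and COL5A2) and 5 fell in both (COL11A2, COL27A1, COL9A2, COL12A1 and COL16A1). That is 13.8% and 17.2% of the tested chains, against 14.9% and 14.3% of all tested genes, so both shares are near the background. The former make up 23.5% of the HS578T calls and 28.6% of the MDA-MB-231 calls, and the latter 29.4% and 35.7%. Of these 9 chains, COL1A2 and COL9A2 kept the call in both lines without any single library. COL5A1 lost it in HS578T, COL1A1, COL5A2 and COL12A1 in MDA-MB-231, and COL11A2, COL27A1 and COL16A1 in both, without at least 1 library. COL8A1 fell in HS578T and rose in MDA-MB-231. Calls were made in HS578T alone for COL3A1, COL5A3, COL4A1, COL4A5, COL4A6, COL17A1 and COL18A1, and in MDA-MB-231 alone for COL4A2, COL6A3, COL13A1 and COL7A1. A call in 1 line alone does not show that the lines differ, so the difference itself was tested.

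The difference between the lines' changes (the MDA-MB-231 change minus the HS578T change) passed for 11 of 29 chains, 37.9%, against 17.0% of all tested genes, with 6 chains higher and 5 lower. This contrast shares its samples with the changes in each line. Of all genes called in it 37.1% were higher with TMM scaling and 55.6% with DESeq2 size factors, under which 7 chains were called higher and 4 lower. COL7A1 (-0.77 ± 0.09, edgeR adjusted p = 2.49e-05), COL6A3 (-0.56 ± 0.07, edgeR adjusted p = 8.27e-05) and COL13A1 (-0.62 ± 0.10, edgeR adjusted p = 0.000446) had the lower change in MDA-MB-231, where they fell, and were not called in HS578T (-0.12, 0.02 and 0.16). COL8A1 (0.63 ± 0.09, edgeR adjusted p = 0.000156), COL12A1 (0.49 ± 0.06, edgeR adjusted p = 8.9e-05) and COL18A1 (0.48 ± 0.07, edgeR adjusted p = 0.000224) were shifted up in MDA-MB-231 relative to HS578T. These 6 differences were also called under each alternative setting and without any single library. So was that of COL4A2 (0.22 ± 0.06, edgeR adjusted p = 0.0187). For the type I chains the difference did not pass, at 0.07 ± 0.14 for COL1A1 (edgeR adjusted p = 0.802) and 0.42 ± 0.18 for COL1A2 (edgeR adjusted p = 0.115).

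The other 4 differences were less settled. COL5A1 (0.29 ± 0.08, edgeR adjusted p = 0.0218) and COL4A1 (0.30 ± 0.09, edgeR adjusted p = 0.0294) lost the call without either HS578T control, where 7 chains remained called in place of 11. The COL5A1 call was also lost with DESeq2 and with limma on TPM. COL4A6 (-1.18 ± 0.35, edgeR adjusted p = 0.0311) lost the call under 7 of 12 alternatives and COL4A5 (-0.33 ± 0.10, edgeR adjusted p = 0.032) under 12 of 14.

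**Figure D3:**
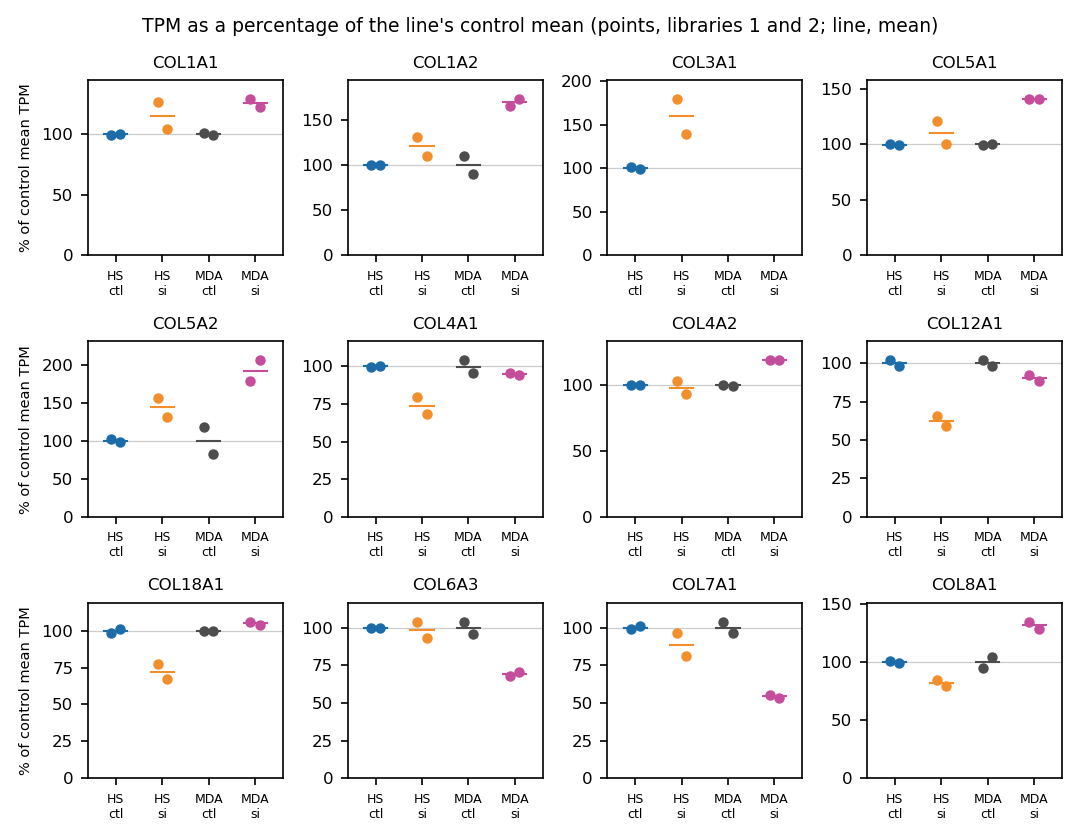
TPM of 12 chains in each library as a percentage of the mean of the 2 controls of the same line (y axis, starting at 0), with 1 point per library, libraries 1 and 2 from left to right, and a bar at the group mean. HS and MDA stand for HS578T and MDA-MB-231, ctl and si for control and siGpx1, and COL3A1 is drawn for HS578T alone because MDA-MB-231 had at most 3 counts. COL7A1 and COL6A3 sit far below 100% in MDA-MB-231 alone, COL12A1 and COL18A1 in HS578T, and the first HS578T siGpx1 library is the higher one for all 12 chains.

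The summed level of collagen RNA changed little while its make-up shifted. The sum was 12965 and 13036 TPM in the HS578T controls and 14629 and 12596 TPM after depletion, so the siGpx1 values lay on either side of the controls. In MDA-MB-231 it was 733 and 724 TPM before and 747 and 746 TPM after. Fibril-forming chains made up 40.4 and 40.4% of the collagen TPM of the HS578T controls and 46.8 and 44.9% after depletion, and 20.3 and 20.4% against 27.4 and 27.2% in MDA-MB-231. In MDA-MB-231 that shift was mostly 1 gene. The mean sum of the class went from 148 to 204 TPM there, and COL5A1 alone from 128 to 180 TPM. The share of type VI chains went from 46.3 and 46.4% to 42.9 and 44.6% in HS578T and from 23.0 and 23.0% to 20.8 and 21.4% in MDA-MB-231. Fibril-associated chains went from 1.65 and 1.59% to 0.979 and 1.02% in HS578T and from 7.39 and 7.23% to 5.69 and 5.75% in MDA-MB-231. In other classes the lines went opposite ways: the type IV share went from 7.73 and 7.69% to 6.29 and 6.46% in HS578T and from 16.0 and 15.6% to 17.3 and 17.2% in MDA-MB-231, and that of the short-chain network collagens (types VIII and X) from 0.704 and 0.690% to 0.526 and 0.570% and from 4.12 and 4.67% to 5.75 and 5.49%. Multiplexins went from 1.39 and 1.42% to 0.966 and 0.982% in HS578T and overlapped in MDA-MB-231 at 9.35 and 9.60% against 9.65 and 9.56%. The share of types VIII and X was nearly all COL8A1 in both lines. For type IV in MDA-MB-231, COL4A2 went from a mean of 74.1 to 88.2 TPM and COL4A1 from 28.0 to 26.5 TPM. These shares are a description without a test. The most abundant chain was COL6A3 in the HS578T controls and COL1A1 in its siGpx1 libraries, whereas in MDA-MB-231 it was COL5A1 in all 4 libraries.

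**Figure D4:**
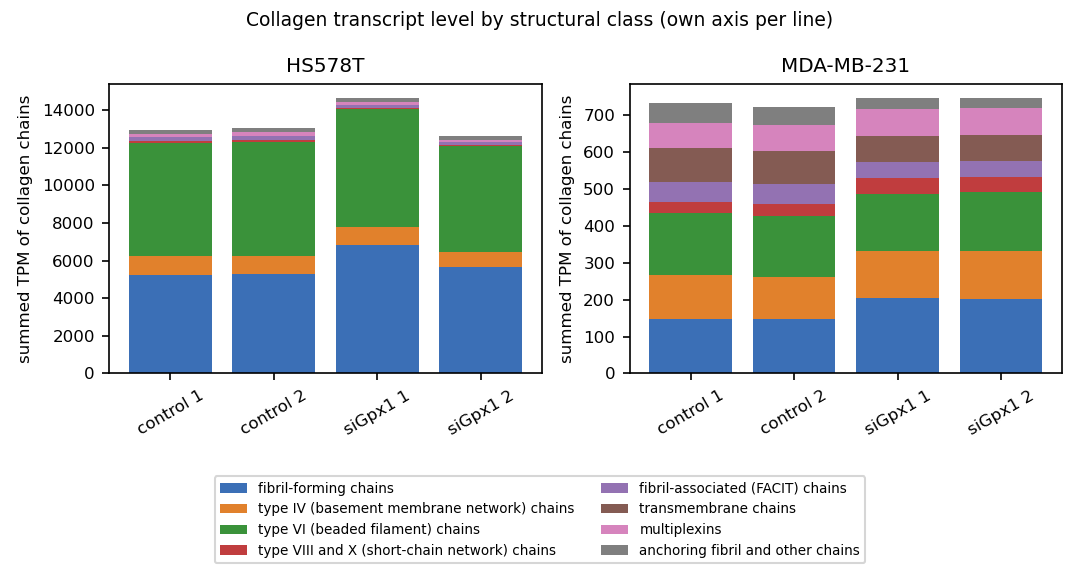
Summed TPM of the collagen chains (y axis, starting at 0) in each library, stacked by structural class, with a separate axis for each line. The HS578T bars reach 12596 to 14629 TPM and the MDA-MB-231 bars 724 to 747 TPM, and in both panels the blue fibril-forming block is taller in the siGpx1 libraries. In MDA-MB-231 that block is mostly COL5A1.

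Ratios between partner chains, which do not depend on the scaling of a library, shifted as well. COL4A2 transcripts per COL4A1 transcript numbered 0.954 and 0.948 in the HS578T controls and 1.23 and 1.30 after depletion, and 2.55 and 2.76 against 3.30 and 3.35 in MDA-MB-231. COL1A1 per COL1A2 was 3.07 and 3.09 against 2.94 and 2.90 in HS578T, and 2.13 and 2.56 against 1.81 and 1.64 in MDA-MB-231. In both lines the siGpx1 ratios of the type I chains lay below both controls. COL6A3 per COL6A1 was 3.25 and 3.22 against 3.19 and 3.24 in HS578T, where the groups overlap, and 0.284 and 0.262 against 0.191 and 0.192 in MDA-MB-231. COL6A1 per COL6A2 overlapped between control and siGpx1 in MDA-MB-231 (1.93 and 1.90 against 1.88 and 1.94) and moved from 0.921 and 0.911 to 0.929 and 0.928 in HS578T.

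**Figure D5:**
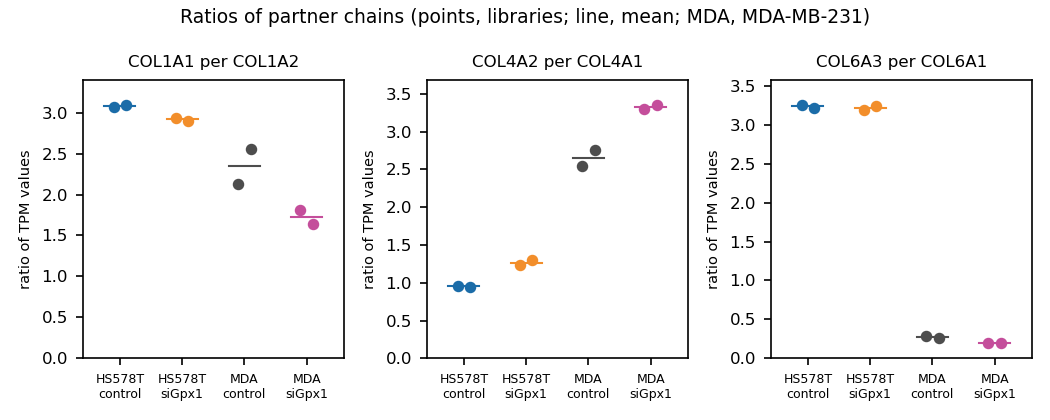
Ratio of TPM values between partner chains in each library (points), with a bar at the group mean and axes that start at 0. COL4A2 per COL4A1 is higher in the siGpx1 libraries of both lines, and COL6A3 per COL6A1 is above 3 in HS578T and below 0.3 in MDA-MB-231.

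COL4A1 and COL4A2 lie head to head on chromosome 13, and their start sites are 126 bases apart in RefSeq on GRCh38.p14. The window from 250 bases before to 50 after the COL4A1 start, chr13:110307108-110307407 on the minus strand, shares 226 bases with the matching COL4A2 window on the plus strand. It is shown because the pair moved unequally, COL4A1 falling in HS578T and COL4A2 rising in MDA-MB-231, while sharing this stretch. Capitals mark 2 GC boxes (GGGCGG, or CCGCCC on the other strand) and 1 CCAAT box (read here as ATTGG).
COL4A1: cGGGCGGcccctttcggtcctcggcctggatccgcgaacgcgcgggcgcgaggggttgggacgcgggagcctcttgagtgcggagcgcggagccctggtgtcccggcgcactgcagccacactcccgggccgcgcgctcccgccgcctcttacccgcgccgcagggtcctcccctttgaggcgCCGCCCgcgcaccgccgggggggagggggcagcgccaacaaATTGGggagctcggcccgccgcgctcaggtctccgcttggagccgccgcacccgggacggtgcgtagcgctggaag
TATAAA was found 0 times on either strand of it. Of 35116 RefSeq windows of this length, 45.0% held a GC box, 34.6% a CCAAT box and 11.5% a TATAAA. The other type IV genes form pairs of the same kind: COL4A5 and COL4A6 start 379 bases apart on the X chromosome and COL4A3 and COL4A4 start 418 bases apart on chromosome 2. A motif match is a description and not a bound site.

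The chains share a feature of their 3′ untranslated regions. The miR-29 miRNAs, long known as regulators of collagen genes, are shown with the seed (bases 2 to 8) in capitals because the site opposite that seed recurs among the chains.
hsa-miR-29a-3p: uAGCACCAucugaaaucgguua
hsa-miR-29b-3p: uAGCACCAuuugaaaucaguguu
hsa-miR-29c-3p: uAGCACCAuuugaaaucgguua
All 3 have the same seed, and a transcript that pairs with it reads TGGTGCT. In GENCODE 29 transcripts, 26 of 44 chains (59.1%) hold TGGTGCT in the 3′ untranslated region. Among tested genes it was in 19 of 29 chains (65.5%) and in 2098 of 13151 genes (16.0%) with such a region, whose median length was 1018 bases for the chains and 1242 bases for all genes. Of the 13 chains at 10 CPM or more with the site, 7 rose and 3 fell in HS578T (median log2 change 0.20), and of the 8 without it 0 rose and 5 fell (median -0.33). In MDA-MB-231, 5 of the 13 rose and 4 fell (median 0.16, with COL3A1 and COL5A3 at no more than 3 counts), and of the 8, 1 rose and 3 fell (median -0.03). Over all 29 tested chains the medians with and without the site were 0.20 and -0.33 in HS578T, whereas in MDA-MB-231 they were 0.00 and -0.03, nearly level. Over all tested genes the HS578T medians with and without the site were 0.03 and 0.05, and those of MDA-MB-231 were 0.01 and 0.00. The chains with the site include the type I, III, V and IV chains, so the site and the structural class largely go together. They part in some classes. In HS578T COL6A3, with the site, changed by 0.02, and COL6A1 and COL6A2, without it, by 0.04 and 0.03. COL16A1, with it, changed by -0.26, and COL12A1 and COL9A2, without it, by -0.65 and -2.13. The fibril-forming COL27A1, with it, changed by -0.34. The part of the site was not tested, and levels of miR-29 were not analysed here.

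GGGCATC and GGCATCA are overlapping sequences of 7 bases that an earlier search of these same data found to go with lower expression after depletion. Their matches among the chains are therefore a description and support nothing. Of 29 tested chains 6 (20.7%) hold either of them in the 3′ untranslated region, COL12A1, COL22A1, COL27A1, COL4A1, COL6A1 and COL6A6, against 1825 of 13151 tested genes (13.9%). The stretches around the match in the 4 of these chains at 10 CPM or more are shown with the matched bases in capitals, since 3 of the 4 fell in HS578T. They are read 5′ to 3′ on the transcript from GRCh38, at chr13:110149214-110149236 on the minus strand, chr6:75085980-75086002 on the minus strand, chr9:114311416-114311439 on the plus strand and chr21:46004198-46004220 on the plus strand.
COL4A1: cctcagcaGGGCATCgcatggac
COL12A1: ctgattcaGGGCATCtgtctttt
COL27A1: tggatgtgGGGCATCAtccgcatc
COL6A1: cctgagttGGCATCAcctgcgca
COL27A1 alone of the 4 holds both sequences, joined as GGGCATCA. COL4A1, COL12A1 and COL27A1 were called lower in HS578T, and COL12A1 and COL27A1 in MDA-MB-231, while COL6A1 was called in neither line. The median log2 change of the 6 matched chains was -0.36 in HS578T and -0.06 in MDA-MB-231, against 0.16 and 0.00 for the other chains. For all tested genes the HS578T medians with and without a match were -0.18 and 0.07, and those of MDA-MB-231 were -0.20 and 0.02. The other 6 of the 9 chains that fell in HS578T (COL11A2, COL8A1, COL9A2, COL16A1, COL17A1 and COL18A1) held neither sequence in that region. Whether the siRNA acts on these transcripts was not tested.

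Chains were also read against 51 listed genes of collagen making, binding and cleavage, of which 46 were tested. In HS578T 16 rose and 7 fell, 23 of 46 in all, and in MDA-MB-231 12 rose and 7 fell (41.3%), shares close to those of all genes. Their changes differed between the lines for 13 of 46 genes (28.3%), against 17.0% of all tested genes. Between the control lines 41 of 46 (89.1%) differed, 33 lower in MDA-MB-231, against 81.6% of all tested genes (38.6% lower). As with the chains, some of these genes passed the filter through 1 line alone. They include LEPREL2, FKBP10, ADAMTS2, ITGA11 and MMP13 through HS578T and GLT25D2 through MDA-MB-231. The direction of such differences was fixed by the filter, and these genes are part of the counts.

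Enzymes that modify chains in the endoplasmic reticulum moved in both directions. Of 10 prolyl hydroxylases and partners, 2 rose and 2 fell in HS578T and 3 rose and 3 fell in MDA-MB-231. PPIB, the cyclophilin that speeds folding of the helix, fell from 1055 and 1089 TPM to 714 and 661 TPM in HS578T (-0.59 ± 0.04, edgeR adjusted p = 5.61e-09) and from 688 and 671 TPM to 534 and 550.1 TPM in MDA-MB-231 (-0.33 ± 0.04, edgeR adjusted p = 7.2e-06). LEPREL1, an older symbol of the prolyl 3-hydroxylase gene P3H2, fell by 0.28 on the log2 scale in HS578T and rose by 0.27 in MDA-MB-231, and the difference passed (0.55, edgeR adjusted p = 3.2e-05). P4HB, the shared subunit of prolyl 4-hydroxylase, rose by 0.13 in HS578T and 0.14 in MDA-MB-231, and P4HA1, a catalytic subunit, fell in MDA-MB-231 (-0.28 ± 0.05).

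Of 5 lysyl hydroxylases and collagen glycosyltransferases, 3 rose in HS578T. PLOD2, which hydroxylates the lysines of the telopeptides, went from 524 and 484 TPM to 917 and 829 TPM (0.85 ± 0.04, edgeR adjusted p = 3.1e-10), whereas in MDA-MB-231 it was at 113 and 109 TPM before and 117 and 119 TPM after (0.08 ± 0.05, edgeR adjusted p = 0.208). GLT25D1, now COLGALT1, which adds galactose to hydroxylysine, rose in both lines (0.30 ± 0.03 and 0.34 ± 0.04). PLOD1 rose in HS578T (0.19 ± 0.04) and PLOD3 fell in MDA-MB-231 (-0.28 ± 0.05). Of 7 chaperones and export factors, the collagen chaperone SERPINH1 rose in HS578T (0.19 ± 0.04), and SEC23A (0.25 ± 0.04) and MIA3 (0.18 ± 0.04), which act in export, rose in MDA-MB-231.

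Outside the cell, ADAMTS14, a protease that removes the amino-terminal propeptide, rose from 2.60 and 2.91 TPM to 12.5 and 8.49 TPM in HS578T (1.98 ± 0.17, edgeR adjusted p = 1.31e-07) and from 2.50 and 2.79 TPM to 4.89 and 5.93 TPM in MDA-MB-231 (1.02 ± 0.19, edgeR adjusted p = 0.000476). PCOLCE2 (0.92 ± 0.12) and PCOLCE (0.37 ± 0.05), which enhance removal of the carboxy-terminal propeptide, rose in HS578T, and of the 6 tested proteinases and enhancers 4 rose and 1 fell there. ADAMTS3 fell in MDA-MB-231 (-0.83 ± 0.17). The lysyl oxidase LOX, which cross-links fibrils, fell in both lines, from 251 and 243 TPM to 161 and 140 TPM (-0.66 ± 0.05) and from 70.5 and 71.0 TPM to 49.3 and 49.2 TPM (-0.53 ± 0.06). Its relatives LOXL1 (0.40 ± 0.07) and LOXL2 (0.19 ± 0.04) rose in HS578T, and LOXL4 rose in MDA-MB-231 from 68.6 and 71.8 TPM to 120.2 and 114 TPM (0.73 ± 0.05, edgeR adjusted p = 1.62e-08).

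Among 7 tested collagen receptors 2 rose and 2 fell in HS578T and 2 rose and 1 fell in MDA-MB-231. DDR1, a receptor tyrosine kinase for collagen, rose in both (0.38 ± 0.06 and 0.22 ± 0.06), the integrin subunit gene ITGA2 rose in HS578T (0.36 ± 0.04), ITGA10 fell there (-1.05 ± 0.28), and ITGA1 fell (-0.47 ± 0.09) and ITGB1 rose (0.13 ± 0.03) in MDA-MB-231. ITGA11, a subunit of an integrin for fibrillar collagen, was at 326 and 320.3 TPM in the HS578T controls and at 0 in all MDA-MB-231 libraries, at least 6830-fold higher in the former. Of 6 tested collagenases and gelatinases 2 rose in each line: the membrane protease MMP14 (0.33 ± 0.04 and 0.12 ± 0.04) in both, MMP2 in HS578T (0.17 ± 0.04) and MMP1 in MDA-MB-231, from 37.6 and 33.8 TPM to 48.8 and 52.6 TPM (0.50 ± 0.07, edgeR adjusted p = 5.84e-05). The procollagen protease ADAMTS2, with 135 and 139 TPM in the HS578T controls, held 2 counts over the MDA-MB-231 controls, a ratio of 5440 with a 95% exact counting interval of 1500 to 44900.

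The 15 chains that did not pass the filter held too few counts for a test. COL2A1, COL6A5, COL9A1 and COL28A1 had 0 counts in all 8 libraries. COL24A1, COL8A2 and COL21A1 reached 12 counts in their highest library, COL4A3 reached 4, and COL11A1, COL10A1, COL9A3, COL20A1, COL23A1, COL25A1 and COL26A1 reached at most 2. The chains of cartilage (COL2A1, COL11A1, COL9A1, COL9A3 and COL10A1) were thus not detected or close to the limit, while their partners COL11A2 and COL9A2 were among the tested chains.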

How the data were processed

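RNA sequencing of total RNA gave 1 gene table for each of the 8 libraries, 2 per group. The authors deposited expected counts from RSEM 1.2.12 and TPM per gene, with gene lengths. FastQC, RSEM and the build hg19 are named in the submitters' processing notes, and strand handling is not given in the sources used here. Expected counts were rounded, 94.71 to 94.88% of those above 0 being whole as deposited. Genes were filtered with filterByExpr, scaled by TMM and fitted with edgeR 4.0.16 (quasi-likelihood, group means over all 8 libraries, R 4.3.3), with Benjamini-Hochberg adjustment over 14249 genes and calls at 0.05. SE is the log2 change over the square root of F and understates the error of large changes. TPM, deposited by the authors, was used for levels, ratios and sums.

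Chains at 10 CPM or more in a group, and lower chains called with a log2 change of at least 1, are given by library. For the listed collagen-processing genes, up to 3 with the smallest p per class and line are named. Members and lists were chosen with earlier results of these data known. Tested on simulated data, the fit recovered 54, 90, 90 and 96% of genes changed 1.25, 1.5, 2 and 4-fold in HS578T (14096 genes). In MDA-MB-231 (14097 genes) it recovered 66, 90, 98 and 96%, and 1.2 and 6.91% of calls were not seeded. The simulation changed a small set of well-counted genes, with the same spread for every gene. In the data 50.7 and 42.6% of genes were called, so these rates are not error rates of the data. They do not cover low chains such as COL11A2 and COL4A6. Alternatives were DESeq2 1.42.0, its size factors, limma 3.58.1 on log2(TPM + 1), other filters, each line alone, a replicate block and each library left out. Sequences come from GENCODE 29 transcripts and RefSeq tables on GRCh38. Transcripts were joined to genes by RefSeq accession, or by symbol where that gave none, and the longest 3′ untranslated region of each gene was searched. Promoter windows were matched by symbol and were found for 32 of 44 chains. No hg19 coordinates were used.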

Additional observations from a re-analysis of the deposited data

Results flagged for a closer look

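For 11 chains the change after GPX1 depletion differed between the lines when the difference itself was tested (the MDA-MB-231 log2 change minus the HS578T log2 change, by the quasi-likelihood test of edgeR, p-values adjusted by Benjamini-Hochberg). The difference was -0.77 for COL7A1, -0.56 for COL6A3 and -0.62 for COL13A1, which were lower in MDA-MB-231 by -0.89, -0.54 and -0.46 and did not pass in HS578T. It was 0.49 for COL12A1, which fell by 0.65 in HS578T and by 0.16 in MDA-MB-231. It was 0.48 for COL18A1 and 0.30 for COL4A1, which fell in HS578T and did not pass in MDA-MB-231 (0.06 and -0.09), and 0.63 for COL8A1, which fell in HS578T and rose in MDA-MB-231. For COL4A2, which rose in MDA-MB-231 and did not pass in HS578T (0.03), it was 0.22, and for COL5A1, which rose in both lines, 0.29. It was -1.18 for COL4A6 and -0.33 for COL4A5, the partner chains that rose in HS578T (0.68 and 0.49) and did not pass in MDA-MB-231 (-0.50 and 0.16). Among all tested genes 17.0% differed in this way.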

How the results depend on the processing

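The number of chains called in HS578T was 10 with DESeq2 in place of 17, and the calls of COL1A1, COL5A1, COL11A2, COL16A1, COL17A1, COL27A1 and COL4A6 were lost. The cause was not tested. Leaving out single libraries gave 12 to 17 chains in HS578T, 9 to 12 in MDA-MB-231 (9 without control replicate 2), 7 to 12 for the difference between the lines (7 without either HS578T control) and 27 to 29 between the controls. The change of COL6A3 in HS578T reversed to -0.06 without siGpx1 replicate 1 and was 0.07 without replicate 2. Without the most abundant chain of the line (COL6A3) the summed level was 9339 TPM in the HS578T controls and 10002 TPM after depletion, and without COL5A1 it was 600.0 and 566.0 TPM in MDA-MB-231, so there the remaining chains summed to less after depletion than before.

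The replicate numbers did not pair the libraries: replicate differences correlated between -0.016 and 0.077 over 10755 genes. With a replicate block 18 chains were called in HS578T (COL7A1 was gained), 14 in MDA-MB-231, 11 for the difference between the lines and 28 between the controls. Over all genes, DESeq2 called 1279 genes for the difference between the lines against 2428, and 1519 to 1579 were called without either MDA-MB-231 siGpx1 library. The share of those calls that were higher was 37.1%, against 67.9% with a stricter filter (5 CPM in 2 libraries) and 66.2 to 67.4% without any MDA-MB-231 library, and limma on TPM moved the median difference between the controls to 0.174 from 0.049. Chains with under 60 counts per library (COL11A2, COL4A6, COL4A4 and the like) are limited by depth, and there small changes were not detectable.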
